A study of Mus musculus with 225 samples.

Results

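Chondrogenic cells of the mouse forelimb were compared between the autopod, the future hand, and the zeugopod, the future forearm. A retained cell was taken as chondrogenic when it had at least 5 reads of at least 3 of 5 cartilage genes, *Sox9*, *Col2a1*, *Acan*, *Col9a1* and *Matn1*. The cells were thus chosen by raw reads of these genes, and 73 of 199 retained cells were members, 35 from the autopod and 38 from the zeugopod. All cells came from *Hoxd11::GFP* heterozygous embryos of a mixed C57Bl6CBAF1 background at E12.5, in which a *tau-GFP* cassette inserted into *Hoxd11* inactivates that allele. Forelimbs of littermates were pooled, and the cells with the brightest GFP were sorted, so both tissues were sampled for the domain in which *Hoxd11* is transcribed and cells without GFP were not sampled. Each cell was lysed in its own chamber of a Fluidigm C1 chip and its polyadenylated RNA was sequenced as a separate library. The autopod cells were sequenced in the runs NXT0072 (27 chondrogenic cells) and NXT0143 (8 cells), and the zeugopod cells in NXT0142 (19 cells) and NXT0143 (19 cells). No embryo is named for a cell, so each tissue is 1 pooled sample. Cells are not replicates of a tissue, hence values are given with their spread over cells and no test between the tissues was possible. Outside NXT0143, tissue and run cannot be told apart.

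The limb skeleton is laid down as cartilage. Mesenchymal cells condense, switch on the transcription factor SOX9, which is required for the condensations, and then secrete a matrix of type II, IX and XI collagen and aggrecan, the proteoglycan that holds water in cartilage. Matrilins link the collagen network once the cells are more mature. Condensation runs from proximal to distal, so that the forearm rods are laid down before the digital rays. The identity of the segments is set in parallel by *Hox* genes, of which *Hoxd13* and *Hoxa13* act in the hand plate and *Hoxd11* and *Hoxa11* in the forearm, and by *Shox2*, a homeobox gene needed for proximal limb bones.

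The sequences before the transcription start of 5 called genes, *Hoxd13*, *Hoxa13*, *Msx1* and *Fos* on the autopod side and *Shox2* on the zeugopod side, are given because they are among the genes whose tissue differences are described here (RefSeq, GRCm38.p6, 250 bases on the gene's strand). They were chosen after the values were seen, among genes whose 250 bases hold no exon. Capitals mark CAATAAA, a core bound by HOX13 proteins, GGCGCC, a GC-rich box known from SMAD targets, and TGACG, the core of the cAMP response element, each searched on both strands. The regions are chr2:74667975-74668224 for *Hoxd13*, chr6:52260881-52261130 for *Hoxa13*, chr5:37824586-37824835 for *Msx1*, chr12:85473640-85473889 for *Fos* and chr3:66981772-66982021 for *Shox2*, with *Hoxa13*, *Msx1* and *Shox2* on the minus strand.
Hoxd13: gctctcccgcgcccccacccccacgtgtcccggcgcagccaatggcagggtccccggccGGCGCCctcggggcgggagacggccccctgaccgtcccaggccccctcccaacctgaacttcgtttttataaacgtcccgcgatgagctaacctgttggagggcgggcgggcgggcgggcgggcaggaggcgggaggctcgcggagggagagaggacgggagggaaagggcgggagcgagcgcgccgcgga
Hoxa13: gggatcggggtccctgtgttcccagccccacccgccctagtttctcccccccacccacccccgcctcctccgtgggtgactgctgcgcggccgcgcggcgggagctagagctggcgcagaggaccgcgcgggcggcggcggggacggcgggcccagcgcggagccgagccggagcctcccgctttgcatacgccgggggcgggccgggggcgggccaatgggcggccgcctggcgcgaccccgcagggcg
Msx1: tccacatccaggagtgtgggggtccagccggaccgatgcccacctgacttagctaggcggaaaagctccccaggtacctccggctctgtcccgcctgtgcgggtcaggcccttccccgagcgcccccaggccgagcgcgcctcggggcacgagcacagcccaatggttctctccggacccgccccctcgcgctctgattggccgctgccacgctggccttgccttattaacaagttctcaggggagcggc
Fos: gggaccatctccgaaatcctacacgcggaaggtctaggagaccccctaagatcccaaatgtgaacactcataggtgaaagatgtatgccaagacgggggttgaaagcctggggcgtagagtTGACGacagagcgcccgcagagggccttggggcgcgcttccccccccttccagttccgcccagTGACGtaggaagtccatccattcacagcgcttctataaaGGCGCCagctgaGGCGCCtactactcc
Shox2: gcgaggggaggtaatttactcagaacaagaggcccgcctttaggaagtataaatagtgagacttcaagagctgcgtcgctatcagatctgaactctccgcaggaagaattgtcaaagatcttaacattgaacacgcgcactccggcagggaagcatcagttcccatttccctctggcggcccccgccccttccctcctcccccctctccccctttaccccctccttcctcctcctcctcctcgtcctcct

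*Hoxd13* held GGCGCC once, 191 bases before the start. *Fos* held TGACG at 2 places, the nearer at 66 bases, and GGCGCC at 27 and 15 bases. None of the 3 motifs was found in the other 3 sequences. Among 32851 promoters of the same length in the RefSeq table, 4.20% held CAATAAA, 9.59% held GGCGCC and 17.8% held TGACG. A match is a run of letters, not a binding site.

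All 73 cells had *Sox9* above the minimum, although the rule did not ask for it, and most had the same pair of collagens beside it. *Sox9* with *Col2a1* and *Col9a1* only was the pattern of 26 autopod and 22 zeugopod cells, and the same genes with *Acan* were seen in 5 and 8 cells. *Acan* reached 5 reads in 9 of 35 autopod and 16 of 38 zeugopod cells. *Matn1*, a matrilin of differentiated cartilage, was the rarest marker. It reached 5 reads in 4 zeugopod cells, all from NXT0143 and all with the other 4 markers, and had no read in any autopod cell (0 of 35, which allows a share of up to 8.57%). Its summed reads were 0 in the autopod and 4210 in the zeugopod (exact Poisson 95% interval 4084 to 4339). The 4 cells had 26, 135, 504 and 3545 reads, so that 1 cell held most of the sum and 665 reads remained without it. Exactly 3 markers were found in 30 autopod and 26 zeugopod cells, 4 markers in 5 and 8 cells, and 5 markers in 0 and 4 cells. These counts are given as a description, since the same reads chose the cells. Intervals here and below cover counting error only, and reads are not independent molecules.

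**Figure D1:**
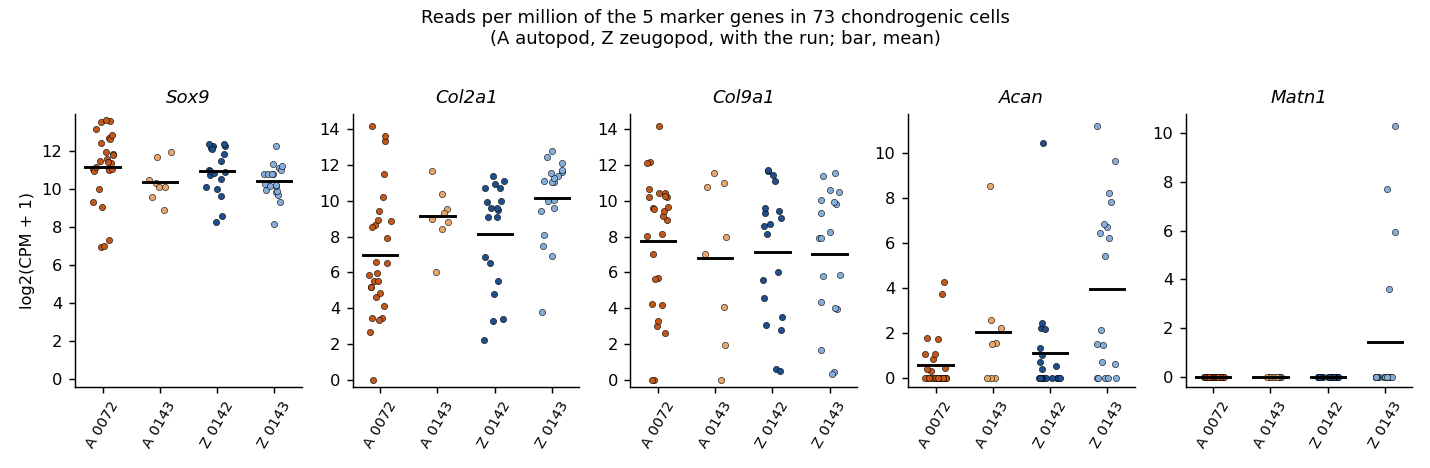
Expression, as log2(CPM + 1) with CPM the counts scaled to an equal total per cell, of the 5 marker genes in each of 73 chondrogenic cells, by tissue and run, with the mean as a bar. *Sox9* was present in every cell, *Acan* was high mainly in a set of zeugopod cells of NXT0143, and *Matn1* was seen in 4 zeugopod cells of that run only.

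The chondrogenic share of retained cells was 46.1% in the autopod (35 of 76, exact Clopper-Pearson 95% interval 34.5 to 57.9%) and 30.9% in the zeugopod (38 of the 58 cells of NXT0142 and 65 of NXT0143 together, 22.9 to 39.9%). Within NXT0143 the shares were 47.1% (8 of 17, 22.98 to 72.2%) and 29.2% (19 of 65, 18.6 to 41.8%). These intervals describe the cells counted and do not compare the tissues. The 6 chondrogenic cells nearest the cut had 5, 5, 5, 6, 6 and 6 reads of the lowest marker that the rule counted, whereas the 6 nearest cells outside had 4, 4, 4, 3, 3 and 3. In all, 11 chondrogenic cells had fewer than 10 reads of that marker, and 27 other cells missed the rule by having 1 to 4 reads of it. None of 26 cells that did not pass the authors' quality filter met the rule.

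The chondrogenic cells had 186271 to 6539971 reads on genes, with medians of 2975340 and 3243820 in autopod and zeugopod, and medians of 3390 and 3869.5 genes detected. By run, the median of genes detected was 3112 in the autopod cells of NXT0072 and 3737 in those of NXT0143. In the zeugopod it was 3857 in NXT0142 and 3882 in NXT0143. The autopod cells of NXT0072 thus had the fewest genes detected, and the part of this in the differences was not tested. No pair of libraries held identical counts. Expression is given as the deposited normalized value, which is scaled by spike-in RNA and by gene length, and a difference is the autopod mean of log2(value + 1) minus the zeugopod mean, so that a positive difference is a higher autopod level. The pseudocount of 1 makes the differences of low genes smaller than their true ratio. To enter the comparison a gene needed 5 or more reads in 25% or more of the cells from 1 of the tissues, and 4647 genes did. It was called when its difference over all 73 cells was at least 2 in size and had the same sign within NXT0143 (8 against 19 cells) and between NXT0072 and NXT0142 (27 against 19 cells), a pair of comparisons that share no cell. Where a gene is followed by 2 values, the first is the difference over all cells and the second that within NXT0143, and, where given, the last is that between NXT0072 and NXT0142.

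By this rule 35 genes, 0.753% of 4647, were called higher in the autopod and 191, 4.11%, higher in the zeugopod. The counts depended on the settings. They were 76 and 336 with a pseudocount of 0.1, and 11 and 35 with one of 10. In the 17 cells with 4 or more markers, 5 of them from the autopod, they were 694 and 357, so that more genes were then called in the autopod. Within NXT0143 alone, 280 genes (6.03%) were higher in the autopod by at least 2 and 288 (6.2%) higher in the zeugopod. The median of all genes was shifted towards the zeugopod. The median difference over 4647 genes was -0.32 over all cells, -0.06 within NXT0143 and -0.39 between the other runs, and differences below are read against these medians. A gene's difference was positive in all 3 comparisons for 18.3% of 4647 genes and negative in all 3 for 34.6%. Runs of the same tissue also differed, by at least 2 for 15.7% of genes between the autopod cells of NXT0072 and NXT0143. Between the zeugopod cells of NXT0142 and NXT0143 the share was 6.37%. Between the tissues it was 5.90% over all cells, 12.2% within NXT0143 and 11.6% between NXT0072 and NXT0142. The autopod runs thus differed in more genes than the tissues did in any comparison, though the numbers of cells compared were not equal. Of the called genes, 11 of 35 and 48 of 191 were past 2 in each of the run comparisons on its own. Counts of called genes in a list are read against 0.753% for the autopod and 4.11% for the zeugopod.

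**Figure D2:**
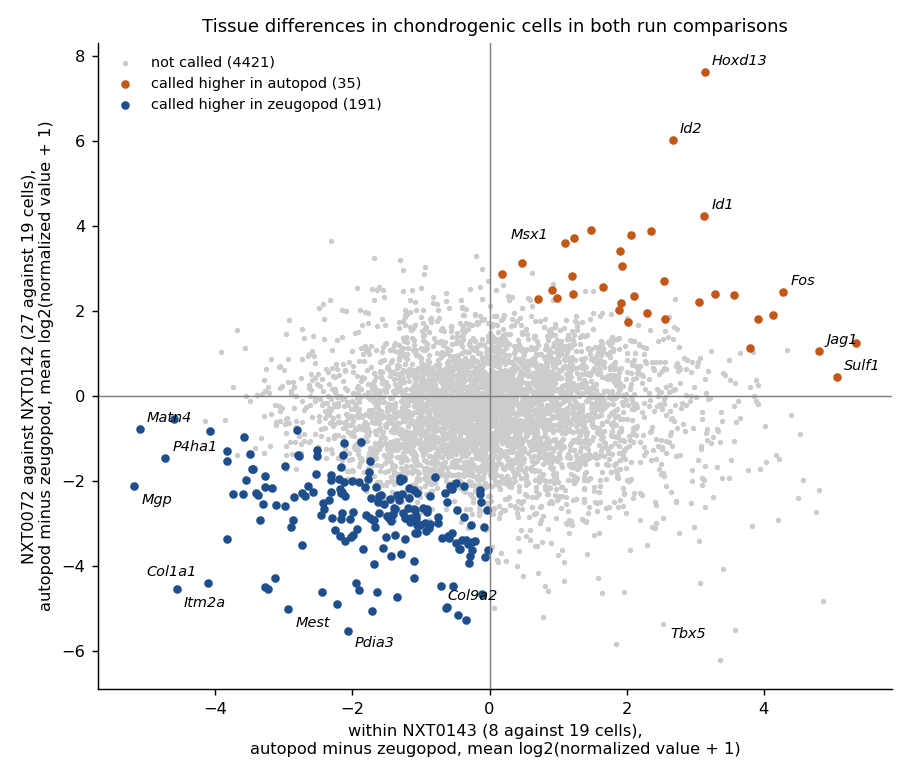
Each point is 1 of 4647 genes; the x axis gives the difference within NXT0143 (8 autopod against 19 zeugopod cells) and the y axis that between NXT0072 and NXT0142 (27 against 19 cells), both as mean log2(normalized value + 1). *Hoxd13* lay farthest up (3.14 and 7.61), *Itm2a* and *Col1a1* were low on both axes, *Col9a2* (-0.71 and -4.46) was low mainly on the y axis, and *Tbx5* (2.53 and -5.35) had opposite signs.

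The largest difference was that of *Hoxd13* (chromosome 2, 74668310 to 74671599, plus strand), the terminal gene of the HoxD cluster. In the 27 autopod cells of NXT0072 its normalized value ran from 0.402 over a median of 1029 to 5018, where the lowest value is that of a cell with no read. The 8 autopod cells of NXT0143 were lower, from 0.402 over 4.63 to 469, and had 0, 0, 1, 1, 24, 254, 544 and 1172 reads. Of 38 zeugopod cells, 1 in NXT0142 had a value of 92.1 and the rest had at most 1 read. At least 5 reads were found in 27 of 35 (77.1%, interval 59.9 to 89.6%) autopod and 1 of 38 (2.63%, interval 0.0666 to 13.8%) zeugopod cells. In cells thinned to 500000 reads, at least 1 read was left in 76.5% of 34 autopod and 5.41% of 37 zeugopod cells. The difference was 6.68 over all cells, 3.14 within NXT0143 and 7.61 between the other runs. It was higher in the autopod in both run comparisons, and autopod cells with no *Hoxd13* read were present in both runs.

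The genes on either side of *Hoxd13* had smaller differences. *Hoxd12* gave 1.63 (1.12 within NXT0143) and had at least 5 reads in 13 of 35 (37.1%, interval 21.5 to 55.1%) autopod cells and in 0 of 38 zeugopod cells, a count that leaves room for up to 7.89%. *Hoxd11*, the gene that carries the reporter, was found at 5 reads in 27 and 29 cells with a difference of -0.18, and *Hoxd10* in 20 and 26 cells with -0.31. *Hoxd9* (-0.84, too rare for a call) and *Hoxd8* (-2.03) were lower in the autopod over all cells. Within NXT0143 the order was different, with *Hoxd11* at 1.66, *Hoxd10* at 0.62, *Hoxd9* at -0.07 and *Hoxd8* at 0.48. *Hoxd8*, *Hoxd10* and *Hoxd11* differed by 4.14, 2.65 and 1.95 between the zeugopod cells of NXT0142 and NXT0143, which is more than their differences between the tissues over all cells. On the far side of *Hoxd13*, *Evx2*, its homeobox neighbour, gave 1.35 (0.32 within NXT0143) and had 5 reads in 11 of 35 autopod and 0 of 38 zeugopod cells. *Lnp*, which lies 88.9 kb away from *Hoxd13* and encodes an endoplasmic reticulum protein unrelated to *Hox* genes, was itself called higher in the autopod (2.23, 0.98 within NXT0143, 26 against 13 cells with 5 reads). *Atp5g3* and *Mtx2*, farther out on either side, gave -0.34 and -0.01. *Lnp*, *Evx2*, *Atp5g3* and *Mtx2* were picked for their position after the values were seen.

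**Figure D3:**
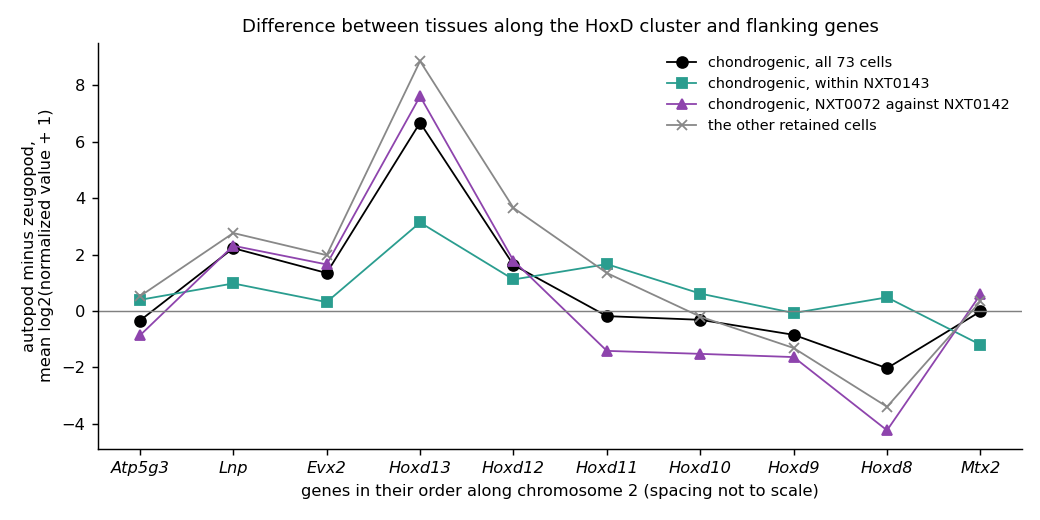
Difference between autopod and zeugopod, as mean log2(normalized value + 1), for genes in their order along the HoxD cluster and its flanks, in chondrogenic cells (all 73, within NXT0143, and NXT0072 against NXT0142) and in the other retained cells; *Hoxd4*, *Hoxd3* and *Hoxd1*, between *Hoxd8* and *Mtx2*, are not drawn. The peak at *Hoxd13* is present in each series, and the values from *Hoxd11* to *Hoxd8* lie below 0 between NXT0072 and NXT0142 and above or near 0 within NXT0143.

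With the study's rule for a *Hoxd* gene being on, which asks for a value of 5 or more and 5% or more of the highest *Hoxd* gene in the cell, *Hoxd13* was on in 25 of 35 autopod and 1 of 38 zeugopod cells. *Hoxd11* was on in 16 of 35 (45.7%, interval 28.8 to 63.4%) and 28 of 38 cells (73.7%, 56.9 to 86.6%). The rule is relative, so a cell with much *Hoxd13* can hold *Hoxd11* reads without *Hoxd11* being counted as on. In 1 autopod cell, *Hoxd11* had a value of 175.5 beside 5018 for *Hoxd13* and was not on. By reads alone, at least 5 of *Hoxd11* were found in 27 of 35 (77.1%) autopod and 29 of 38 (76.3%) zeugopod cells. In NXT0143 *Hoxd11* was on in 6 of 8 and 13 of 19. In the autopod the combinations *Hoxd10* with *Hoxd13* and *Hoxd13* alone each held 7 cells and *Hoxd11* with *Hoxd13* held 5, all 19 of them from NXT0072. The zeugopod cells most often had *Hoxd11* alone (7 cells) or *Hoxd10* with *Hoxd11* (7 cells). At least 3 *Hoxd* genes were on in 6 of 35 and 12 of 38 cells, and none in 2 and 3.

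Among the HoxA genes, *Hoxa13*, the autopod partner of *Hoxd13*, was called higher in the autopod with 2.56 (1.20 within NXT0143). It had 5 reads in 17 of 27 autopod cells of NXT0072, in 2 of 8 of NXT0143 and in 1 of 38 zeugopod cells. *Hoxa10*, active over the proximal limb, was called higher in the zeugopod with -2.14 (-1.44). *Hoxa11* had 5 reads in 3 and 7 cells (-0.85) and was too rare for a call. Of 10 *Hoxd* and *Hoxa* genes that entered the comparison, 2 were called higher in the autopod and 1 in the zeugopod. None of 13 genes of the HoxB and HoxC clusters was frequent enough to enter.

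*Shox2* was nearly limited to zeugopod cells. In the autopod 34 cells had no read and 1 cell had 4, with a value of 0.948, whereas the highest zeugopod values were 1143 (NXT0142) and 3632 (NXT0143). Of 35 autopod cells 0 had 5 or more reads, a count that leaves room for a share of up to 8.57%, against 17 of 38 (44.7%, interval 28.6 to 61.7%) zeugopod cells. The difference was -2.92 over all cells, -3.30 within NXT0143 and -2.55 between the other runs. The other proximal genes were rarer or differed between runs. *Meox2*, a mesodermal homeobox gene, had 5 reads in 1 and 8 cells (-1.23, -1.65 within NXT0143) and did not reach the frequency needed for a call. *Tbx5*, the forelimb T-box gene, gave -2.75 over all cells but 2.53 within NXT0143, with medians of 0.213 and 182 in the autopod cells of NXT0072 and NXT0143. Of 6 proximal genes in the comparison *Shox2* alone was called, and their median was -0.91 over all cells, -1.17 within NXT0143 and -0.05 between the other runs. Of the 6, 2 were negative and 1 was positive in all 3 comparisons, against 34.6% and 18.3% of all genes.

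Of 12 distal patterning genes in the comparison 3 were called higher in the autopod (against 0.753% of all genes) and 0 in the zeugopod. Of the 12, 9 had a positive difference in all 3 comparisons (against 18.3% of all genes), and the median was 1.51 (0.57 within NXT0143). The study's list of genes most enriched in autopod over zeugopod cells was drawn from the same retained cells. It holds most of the 12, namely *Msx1*, *Msx2*, *Lhx2*, *Lhx9*, *Dach1*, *Prdm16*, *Wnt5a*, *Jag1* and *Dlx5*. The counts thus restate a known contrast and are a description only. *Msx1*, a homeobox gene of undifferentiated distal mesenchyme and interdigit, gave 3.11 and was found in a subset. It had 5 reads in 14 of 35 autopod cells, 13 of them in NXT0072, with a highest value of 12204, and in 1 of 38 zeugopod cells. Within NXT0143 it had 5 reads in 1 of 8 autopod and 0 of 19 zeugopod cells (1.10). *Wnt5a*, a distal ligand of the non-canonical WNT pathway, was found in 32 and 25 cells and gave 2.39, 2.30 and 1.94. *Jag1*, a Notch ligand, gave 2.42 and was higher within NXT0143 (4.80) than between the other runs (1.06). *Hes1*, a transcription factor induced by Notch, gave 2.94 (1.48 within NXT0143), with medians of 163 and 119.6 in the autopod runs and 1.96 and 23.5 in the zeugopod runs. *Creb5*, a CREB-family factor known from limb cartilage and named here after its values were seen, was in all 8 autopod cells of NXT0143 and in 1 of 19 zeugopod cells of that run (5.35), against 14 of 27 and 8 of 19 in the other runs (1.25).

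**Figure D4:**
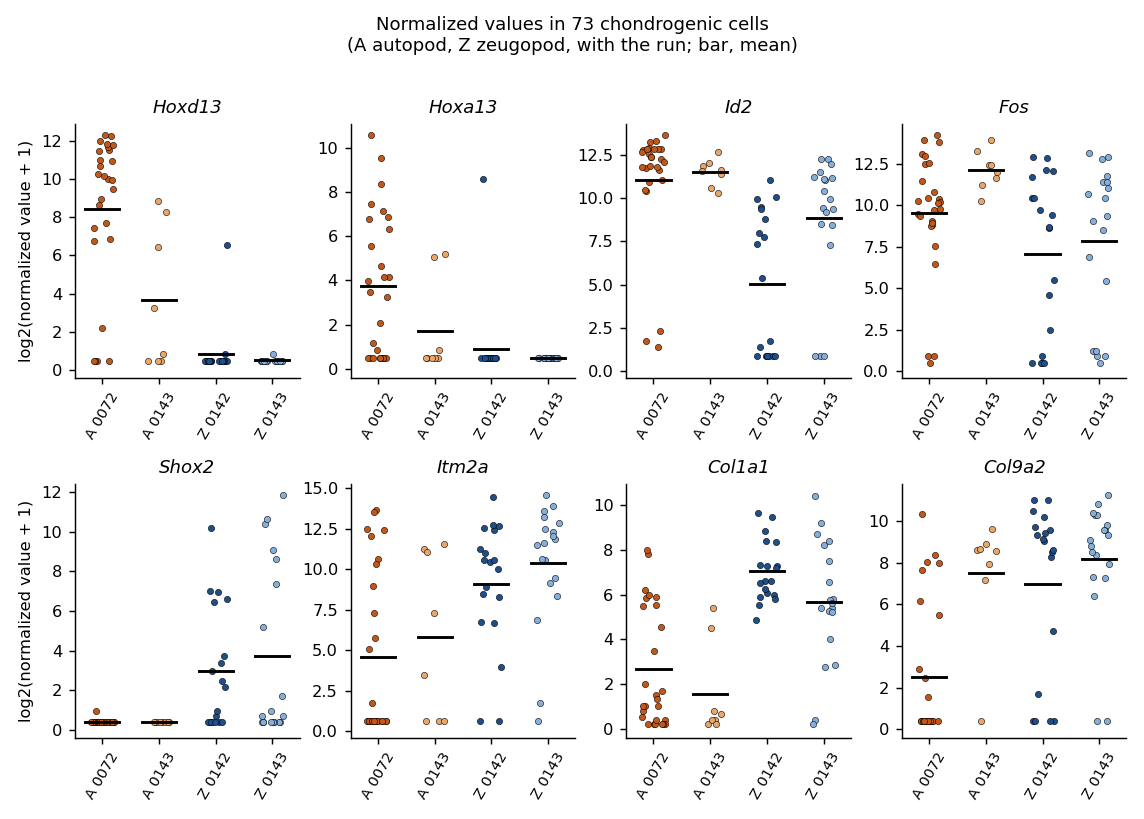
Normalized values, as log2(value + 1), of 8 genes in each of 73 chondrogenic cells by tissue and run, with the mean as a bar; the lowest points of a panel are cells with no read of the gene. *Hoxd13* and *Hoxa13* were nearly limited to autopod cells and *Shox2* to zeugopod cells, the cells low in *Id2* and *Fos* were mostly zeugopod cells, and those low in *Col9a2* mostly autopod cells of NXT0072.

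Several cartilage matrix genes were higher in the zeugopod. Of 22 genes on the list, 9 entered the comparison, of which 0 were called higher in the autopod and 4 (*Col9a2*, *Matn4*, *Lect1* and *Col11a1*) higher in the zeugopod, against 4.11% of all genes, and the median difference was -1.15 over all cells, -0.55 within NXT0143 and -1.09 between the other runs. *Col9a2*, a chain of type IX collagen (chromosome 4, 121039385 to 121055322, plus strand), had the largest difference with -3.94. Its value ran from 0.320 over a median of 0.320 to 1291 in the autopod cells of NXT0072 and from 0.320 over 386 to 776 in those of NXT0143. In the zeugopod the medians were 534 (NXT0142, 0.320 to 2085) and 538 (NXT0143, 0.320 to 2416). The autopod cells of NXT0072 were the low group, 10 of 27 with 5 reads against 7 of 8 in NXT0143, and within NXT0143 the difference was -0.71. The autopod cells of NXT0072 and NXT0143 differed from each other by -4.98, more than the tissues did.

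*Col11a1*, a chain of type XI collagen, gave -2.15, -1.76 and -1.77. *Matn4*, a matrilin, and *Lect1*, which encodes the cartilage protein chondromodulin, differed from *Col9a2* in that they were lower in the autopod mainly within NXT0143 (-5.10 and -2.80) and less between the other runs (-0.77 and -1.38). *Matn4* had 5 reads in 0 of 8 autopod and 14 of 19 zeugopod cells of NXT0143. *Col9a3*, the other partner chain of type IX collagen, was not called (1.06, 0.46). The markers used to choose the cells, given with no more than their values, were -1.68 for *Col2a1* (-0.79 within NXT0143), -1.30 for *Acan* (-1.62), 0.37 for *Col9a1* (0.07) and 0.24 for *Sox9* (0.23). *Sox9* medians of 1710.3 and 842 in the autopod runs and 1620.4 and 875 in the zeugopod runs were lower in NXT0143 in both tissues. *Mgp*, an inhibitor of mineralization named here after its values were seen, had 5 reads in 1 of 35 autopod and 15 of 38 zeugopod cells (-3.56, -5.18 within NXT0143).

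Some cartilage genes varied with *Col2a1*, the type II collagen gene, from cell to cell, and others did so weakly or not in both tissues. Spearman's rho with *Col9a2* was 0.42 over the 27 autopod cells of NXT0072 and 0.55 over the 8 of NXT0143, and 0.62 and 0.58 over the 19 zeugopod cells of each run. With *Col9a3* it was 0.66, 0.71, 0.40 and 0.60 in the same order, and with *Col11a1* 0.34, 0.12, 0.35 and 0.58. Over the 35 autopod and 38 zeugopod cells, *Lect1* gave 0.26 and 0.60 and *Matn4* gave 0.29 and 0.58. For the markers of the rule the values were 0.15 and 0.26 for *Sox9*, 0.30 and 0.38 for *Acan*, and 0.39 and -0.05 for *Col9a1*. *Hoxd13* gave -0.35 over the autopod cells of both runs, -0.21 over the 27 of NXT0072 and -0.44 over the 8 of NXT0143. Reads of *Col2a1*, *Sox9*, *Acan* and *Col9a1* chose the cells, so the rule itself shapes the values that involve them. The cells also share runs and differ in depth, and the values are a description.

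Cartilage transcription factors and cofactors gave no call. Of 12 in the comparison 0 were called in either direction, with a median of -0.48 (0.28 within NXT0143). *Sox5* and *Sox6*, the partners of SOX9, gave -1.28 and -1.11 over all cells and 1.06 and 0.42 within NXT0143. *Nfib* (-2.33, 0.17) was not called, as its sign turned within NXT0143. None of 7 sulfation genes was called, and their median was -0.21 (-0.06 within NXT0143, 0.38 between the other runs). The growth plate list had 2 genes in the comparison, *Fgfr3* (0.74) and *Mef2c* (0.40), of which none was called. Of 19 genes of collagen folding and secretion, 0 were called higher in the autopod and 4 higher in the zeugopod (against 4.11% of all genes). Their median was -1.18 and, within NXT0143, -0.43. *Pdia3*, a disulphide isomerase, had the lowest difference of all 4647 genes, -4.89, with -2.07 within NXT0143. *P4ha1*, a subunit of the enzyme that hydroxylates collagen prolines, gave -3.14 and was farther apart within NXT0143 (-4.73, medians 1.09 and 248) than between the other runs (-1.46).

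The *Id* genes, inhibitors of basic helix-loop-helix factors and direct targets of BMP signalling, were higher in the autopod. *Id2* (chromosome 12, 25093799 to 25097140, minus strand) ran from 1.57 over 4881 to 12976 in the autopod cells of NXT0072 and from 1242 over 3107 to 6495 in NXT0143. In the zeugopod it ran from 0.785 over 40.03 to 2137 in NXT0142 and from 0.785 over 992 to 5017 in NXT0143. Nearly every autopod cell was in the upper range, the zeugopod cells of NXT0142 were the lowest and those of NXT0143 lay between, with 4.23, 2.67 and 6.02. *Id1* gave 3.68, 3.13 and 4.23, and *Id3* gave 2.16, 1.93 and 3.06. Of 14 BMP and GDF pathway genes in the comparison these 3 were the only ones called, 8 were positive in all 3 comparisons (against 18.3% of all genes), and the median was 0.70 (1.17 within NXT0143). *Id1*, *Id2* and *Id3* are also on the study's list of autopod-enriched genes from the same cells. *Fstl1*, a secreted BMP antagonist, gave -2.87 over all cells and 0.13 within NXT0143.

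Immediate early genes, which are induced within minutes by growth factors or by handling of cells, were also higher in the autopod. Of 9 in the comparison 3 were called higher in the autopod, *Fos*, *Egr1* and *Ier2* (against 0.753% of all genes), and 0 in the zeugopod. Within NXT0143, 6 were past 2 towards the autopod (against 6.03% of all genes). *Fos* and *Egr1* are also on the study's list of autopod-enriched genes from the same cells. The median of the 9 was 1.20 over all cells and 2.35 within NXT0143. *Fos* (chromosome 12, 85473890 to 85477273, plus strand) had medians of 1132 and 4801 in the autopod runs and 411 and 647 in the zeugopod runs, with differences of 2.64, 4.28 and 2.44. *Dusp1*, a phosphatase of MAP kinases, gave 2.95 (1.23 within NXT0143), but -0.91 in the 17 cells with 4 or more markers. The heat shock gene *Dnajb1* was not called (1.43). *Egr1* differed by -4.80 between the zeugopod cells of NXT0142 and NXT0143. The part of cell handling in these values was not tested.

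Genes called higher in the zeugopod included those of interstitial matrix and of embryonic growth. *Col1a1*, the main chain of type I collagen, which cells carry before and around cartilage, ran from 0.151 over 1.51 to 259 in the autopod cells of NXT0072 and from 0.151 over 0.453 to 41.6 in NXT0143. The zeugopod cells had medians of 98.2 (NXT0142, 27.96 to 804) and 48.2 (NXT0143, 0.151 to 1388). The ranges overlapped, but the lowest zeugopod cell of NXT0142 was above the medians of both autopod runs, and the differences were -3.95, -4.10 and -4.40. *Igfbp5*, a secreted IGF-binding protein, gave -2.55 (-2.85 within NXT0143). These were the 2 genes called among 12 of the interstitial matrix and perichondrium list, both higher in the zeugopod (against 4.11% of all genes). The median of the list was -1.31 (-1.09 within NXT0143).

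Of 14 genes of the IGF pathway and imprinted growth list, 7 were called higher in the zeugopod (against 4.11% of all genes) and 0 in the autopod. Of the 14, 12 were negative in all 3 comparisons (against 34.6% of all genes), and the median was -1.92 (-1.43 within NXT0143). The 7 include *Itm2a*, which is neither an imprinted nor an IGF pathway gene, and *Igfbp5*, which is also counted in the interstitial matrix list. *Itm2a*, a membrane protein gene on chromosome X known from early chondrogenesis, had 5 reads in 16 of 35 autopod and 34 of 38 zeugopod cells and gave -4.88, -4.56 and -4.53. *Mest*, an imprinted gene of embryonic mesoderm, gave -4.84, -2.93 and -5.01. Its autopod medians were 1.64 in NXT0072 and 422 in NXT0143, and its zeugopod medians were 789 and 1847. *H19*, an imprinted non-coding RNA, differed by -2.24 (-2.32 within NXT0143) although 33 of 35 autopod and all 38 zeugopod cells had it. *Meg3* (-2.50, -0.76), *Igf2r* (-2.32, -1.27) and *Igf1r* (-2.81, -0.30) were called with smaller differences within NXT0143. *Igf2*, the ligand, was not called (-1.08). *Cdkn1c*, an imprinted inhibitor of the cell cycle, gave 1.12 (1.15 within NXT0143) and was not called.

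Genes of the G1/S transition and DNA replication differed mainly within NXT0143. Of 14 in the comparison *Slbp* alone, which binds histone mRNA, was called (-2.15). Of the 14, 11 were negative in all 3 comparisons (against 34.6% of all genes) and 6 were past -2 within NXT0143 (against 6.2%). Their median was -0.81 over all cells and -1.55 within NXT0143. Among them the replication licensing genes *Mcm3* and *Mcm6* gave -2.91 and -3.33 within NXT0143 and -1.08 and -0.99 between the other runs. None of 4 mitotic genes in the comparison was called, with a median of -0.05 over all cells and -1.05 within NXT0143. None of 5 cell cycle brakes and cyclins D was called, and their median was -1.05 over all cells and 0.87 within NXT0143. None of 15 genes of glycolysis and hypoxia was called, and their median was -0.51 over all cells and 0.08 within NXT0143. The medians of the last 2 lists thus changed sign between the comparisons.

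The remaining signalling lists gave few calls. Of 7 FGF genes 1 was called higher in the autopod, *Fgfr2*, a receptor found in condensing mesenchyme (2.01, 1.92 within NXT0143). Of 13 WNT genes the call was *Wnt5a* alone (median -0.25, -0.91 within NXT0143, 0.08 between the other runs). Of 7 hedgehog genes 0 were called, and their median was -0.30 over all cells but 1.01 within NXT0143. Of 6 joint interzone genes 1 was called higher in the autopod, *Sulf1*, a heparan sulphate sulphatase (2.10, 5.06 within NXT0143, 0.45 between the other runs). *Prrx1*, a homeobox gene of limb mesenchyme, was called higher in the zeugopod (-2.10, -2.74), whereas *Twist1*, also of undifferentiated mesenchyme, gave 1.92 with 5 reads in 12 and 2 cells and was not called.

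**Figure D5:**
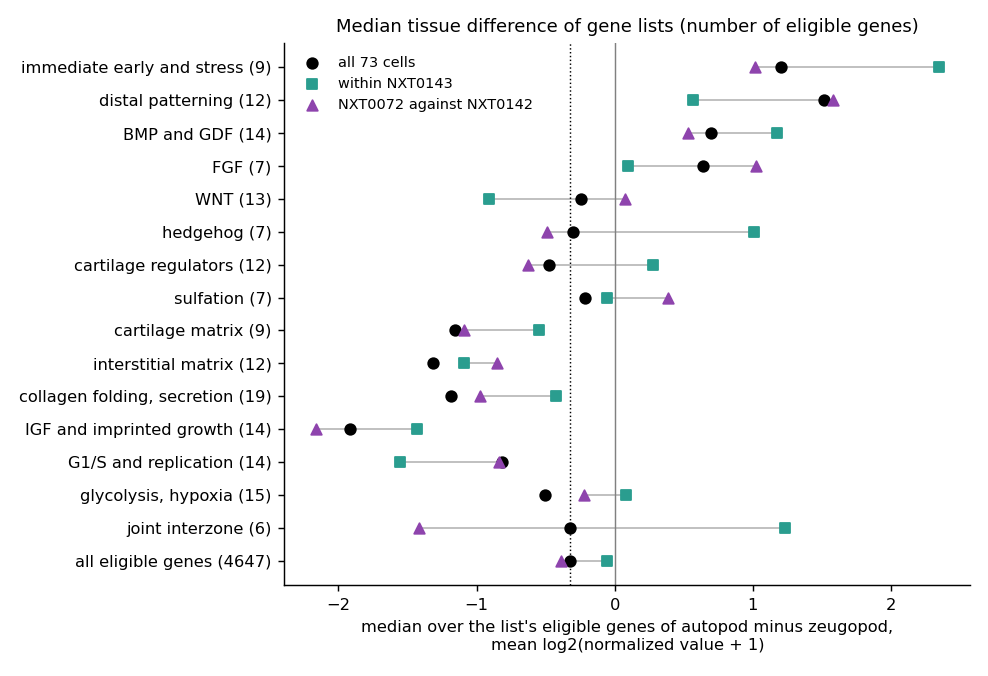
Median over each list's genes of the difference between autopod and zeugopod, as mean log2(normalized value + 1), over all 73 cells, within NXT0143 and between NXT0072 and NXT0142; the number of genes in the comparison is in parentheses, and the dotted line is the median of all 4647 genes. Immediate early, distal patterning and BMP lists were above 0 in all 3 comparisons, and the matrix, folding, IGF and G1/S lists were below 0 in all 3.

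Other called genes with large differences lay outside these lists. Higher in the autopod were *Tmsb4x*, which encodes the actin-binding thymosin beta 4 (3.10, 2.54 within NXT0143), *Gjc1*, a gap junction gene (2.95, 3.28), *Cdc42ep3*, a CDC42 effector (2.86, 3.91) and *Smim15* (3.21, 2.06). Higher in the zeugopod were *Angptl1*, a secreted angiopoietin-like protein (-4.10, -3.27), *Ddhd2* (-3.99, -3.23), *Zscan26* (-3.93, -3.13), *Maged2* (-3.85, -1.63) and *RP24-95O4.6* (-4.16, -0.35). The study's list of autopod-enriched genes from the same cells also holds *Cdc42ep3*. From earlier paragraphs it further holds *Hoxd13*, *Hoxd12*, *Hoxa13*, *Lnp*, *Hes1*, *Dusp1*, *Fgfr2*, *Sulf1*, *Creb5* and *Twist1*, so their differences restate a known contrast.

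Markers of muscle, epithelium, endothelium, macrophages and neural crest did not reach their required number of genes in any chondrogenic cell, and the blood list could not be applied because its other genes were not used here and 1 of 4 was left. Single genes of these lists were still present in some cells. The summed CPM of the epithelium list was at most 1442 in an autopod and 134 in a zeugopod cell, and that of the neural crest list 999.9 and 1425. It was at most 98.3 and 7.54 for muscle, 0.636 and 10.3 for macrophages, and 1.72 and 0.621 for endothelium. The median cell was at 0 for each list in each tissue, except for neural crest in the zeugopod (0.287). *Krt5* and *Krt8* were at 0 in all chondrogenic cells, as were *Myod1*, *Myog* and *Myf5*. The part of these reads in the differences was not tested. The tendon rule, at least 2 of *Scx*, *Tnmd* and *Tnc*, was met by 0 autopod and 3 zeugopod cells, with *Tnmd* at 0 in all. The summed CPM of the 3 genes was at most 407 in an autopod and 2876 in a zeugopod cell, and 0 in the lowest cells. The interdigit rule, at least 2 of *Aldh1a2*, *Msx2* and *Bmp7*, was met by 6 autopod and 1 zeugopod cells, with sums of up to 3095 and 181. Limb mesenchyme markers were kept by 17 of 35 autopod and 29 of 38 zeugopod cells, with median sums of 328 and 1249. Without the 10 tendon- or interdigit-marked cells, 36 genes were called higher in the autopod and 183 in the zeugopod, of which 26 and 139 were among those called with all cells. At least 5 reads of *Xist* and at least 5 of Y-linked genes, a pair that no single mouse cell is expected to make, were present in 4 of 27 autopod cells of NXT0072 and in 0 of the other 46 chondrogenic cells. The Y-linked reads were summed over *Ddx3y*, *Eif2s3y* and *Uty*. *Kdm5d*, which had 5 reads in 19 of 35 autopod and 26 of 38 zeugopod cells, was not counted. No doublet caller was run. Without these 4 cells 46 and 172 genes were called, 34 and 163 of them shared with the calls above. 

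The tissue difference of chondrogenic cells was set beside that of the other retained cells (41 autopod and 85 zeugopod), which share no cell with them. Of 226 called genes, 189 had the same sign in the other cells, and 60 were past 2 there in the same direction, 15 of 35 towards the autopod and 45 of 191 towards the zeugopod. The same shares over all 4647 genes are not given, so no excess is read from these counts. The median difference of all genes was -0.32 in chondrogenic and 0.08 in the other cells. *Hoxd13* (6.68 against 8.86), *Id2* (4.23 against 4.56), *Itm2a* (-4.88 against -4.97), *Mest* (-4.84 against -4.77) and *Col1a1* (-3.95 against -4.39) had differences of the same sign in both groups. *Msx1* (3.11 against 6.50), *Shox2* (-2.92 against -4.90) and *Meox2* (-1.23 against -4.56) were farther apart in the other cells. A gap of at least 2 between the groups, of the same sign in both run comparisons, was found for 47 of 4647 genes towards the autopod and 237 towards the zeugopod. This gap is a description with no test, since the tissues are 1 pooled sample each.

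The 5 genes whose chondrogenic difference lay farthest towards the zeugopod relative to the other cells were *Cpsf3*, a subunit of the mRNA cleavage complex (-2.91 against 1.21, with 0.68 in the 17 chondrogenic cells with 4 or more markers), *Trappc1*, a vesicle tethering subunit (-2.27 against 1.79), *Prkcsh*, a subunit of glucosidase II in the endoplasmic reticulum (-2.88 against 1.06), *Slc38a2*, an amino acid transporter (-1.78 against 1.98), and *Tspan6*, a tetraspanin (-3.54 against 0.19). A single autopod cell held 93.1% of the summed autopod value of *Cpsf3* and 96.6% of that of *Prkcsh*. *Tspan6* was low in the autopod in both run comparisons (-3.83 and -3.36). Farthest towards the autopod were *Tpm1*, an actin-binding tropomyosin (0.94 against -3.00), *6330403K07Rik* (1.58 against -2.17), *Col3a1*, the chain of type III collagen (-1.37 against -5.05), *Spint2*, a protease inhibitor (1.26 against -2.29), and *Tmsb4x* (3.10 against 0.02). For *Tmsb4x* the other cells showed next to no difference while the chondrogenic cells had 5 reads in 31 of 35 autopod and 25 of 38 zeugopod cells. *P4ha1* (-3.14 against 0.24) and *Prrx1* (-2.10 against 1.05) were lower in autopod chondrogenic cells and not in the other autopod cells, and the medians of the G1/S list had opposite signs (-0.81 in chondrogenic and 0.61 in the other cells). Other list medians kept their sign. They were farther from 0 in the other cells for distal patterning (1.51 against 3.02), BMP (0.70 against 1.38) and IGF (-1.92 against -2.73). The same held for interstitial matrix (-1.31 against -2.16) and, by little, for collagen folding (-1.18 against -1.22). Immediate early genes (1.20 against 1.04) and cartilage matrix (-1.15 against -0.23) were nearer 0 in the other cells.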

How the data were processed

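Single cells of E12.5 mouse forelimb autopod and zeugopod were captured on a Fluidigm C1 and sequenced by the authors in the runs NXT0072, NXT0142 and NXT0143. The deposited table of raw counts holds whole-number counts of reads per gene for 225 cells, aligned with Bowtie2 to GRCm38 (mm10) per the submitters' processing notes. The deposited normalized signal holds 10948 genes in 199 retained cells. The authors scaled it by spike-in size factors and divided it by gene length, and 99.9563% of its values are whole multiples of the gene's lowest value (tolerance 1e-06), so a cell with no read of a gene sits at a floor above 0. The 92 spike-in rows were not used here.

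The groups follow the labels. Members were taken by the 3-of-5 marker rule on raw counts. Differences were means of log2(normalized signal + 1), pseudocount 1, over genes with 5 or more reads in 25% or more of the chondrogenic cells from 1 of the tissues, computed with Python 3.11.15, numpy 2.4.6, pandas 2.3.3 and scipy 1.17.1. The code was checked on simulated counts, scaled as CPM, with large set changes in better expressed genes and no run differences. That check does not bear on the calls in these data. *Matn1* is outside the normalized table and is given as reads or CPM. No embryo is named for a cell, so no test was run. Shares have exact Clopper-Pearson and summed reads exact Poisson 95% intervals, and a count of 0 is given the limit that 3 counts allow. Cells of at least 500000 reads were thinned to that number with seed 42.

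The named genes were the 5 markers, *Hoxd9* to *Hoxd13*, *Hoxa10*, *Hoxa11*, *Hoxa13*, *Shox2* and *Meox2*, the 10 called genes of largest difference for each tissue, up to 4 genes with the largest absolute difference in each of 32 lists, and the 5 genes in each direction that departed most from the other retained cells. The members, the lists and these rules were chosen with earlier results of these data known. Gene positions are from GENCODE (GRCm38), and 83 of 113 named genes had a promoter in the RefSeq table. Alternatives to the scale, pseudocount, depth, filter, marker rule, run and summary of cells were tried.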

Additional observations from a re-analysis of the deposited data

How the results depend on the processing

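No paired analysis was possible because cell numbers in the labels only name cells and no result comes from a test. Calls depended on the scale and the pseudocount. With log2(CPM + 1) the zeugopod calls were 290, and in thinned cells 329. A pseudocount of 0.1 gave 76 autopod and 336 zeugopod calls, and one of 10 gave 11 and 35, with a cartilage matrix median of -0.73. Without a filter on low counts that median was -0.66. Requiring 4 of 5 markers, or leaving *Sox9* out of the rule, selected the same 17 cells, of which 5 were autopod cells, or 6.58% of autopod and 9.76% of zeugopod cells. It gave 694 and 357 calls and a median of -1.61, and reversed *Dusp1* (-0.91), *Pdia6* (1.21) and *Cpsf3* (0.68). Within NXT0143 alone 280 and 288 genes were past 2, with a median of -0.55, and between NXT0072 and NXT0142 85 and 455 were. Alternatives chosen after seeing the data gave a median of -0.67 in cells with exactly 3 markers and 12 and 49 calls where at least 2 was required in each run comparison. The cause of these changes was not tested, apart from the smaller number of cells or higher bar that some alternatives set by construction. Alternatives whose sign the call rule fixes were left out (within NXT0143, NXT0072 against NXT0142, and runs weighted equally), and the same 17 cells were counted once. Over 11 alternatives, which share most of their cells, 492 of 495 differences of called named genes were not reversed. A difference of exactly 0 was not counted as reversed. These genes were picked for large differences in the same cells, so few reversals were to be foreseen and the count is no independent support. Depth limits the genes with few reads, and the number of cells, 8 in the autopod of NXT0143, limits every value within that run.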

Other observations

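Reads of *Xist* together with reads of Y-linked genes, at least 5 of each, were also present among the other retained cells, in 7 of 32 autopod cells of NXT0072, 1 of 9 autopod cells of NXT0143, 6 of 39 zeugopod cells of NXT0142 and 0 of 46 zeugopod cells of NXT0143. Among chondrogenic cells they were present in 4 of 27 autopod cells of NXT0072 and in none of the other 46. Neither kind of read reached 5 in 7 of 35 autopod and 3 of 38 zeugopod chondrogenic cells. *Kdm5d* was not counted among the Y-linked genes here either.

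*Acan* was carried by few cells. In the autopod 1 cell, from NXT0143, held 81.4% of the summed normalized value, and in the zeugopod 1 cell held 50.3%, against 11.7% and 11.3% for *Sox9*.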
